A study of Mus musculus with 3 samples.

Results

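The transcripts described here code for the enzymes and transporters of glycolysis and lactate export, for the pentose phosphate pathway, and for hypoxia-inducible factor 1 alpha (HIF-1 alpha) with its regulators and targets. They were the gene probes whose annotated symbol was one of 35 listed genes, among 24770 RefSeq-named genes on the array. The 35 genes were carried by 82 of the 56605 gene probes and 109 of the 59305 gene spots, and all 35 were present. RNA came from RAW 264.7 cells, a mouse macrophage-like tumour line, hybridised to 3 Agilent one-colour arrays, 1 per condition. All of the cells received 50 ng/mL of lipopolysaccharide (LPS), the bacterial agonist of TLR4. The LPS condition had no lactobacilli, the CRL1505 + LPS condition was first cultured for 24 h with *L. rhamnosus* CRL1505, and the CRL1506 + LPS condition for 24 h with *L. plantarum* CRL1506, both at 50000000 bacteria per mL on wells of 500000 macrophages. The time under LPS was 12 h in the series design and 3 h in the sample descriptions. Cells without LPS were not analysed here, so that no value below measures the response to LPS itself, and a single immortal line stood for the macrophage.

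Glycolysis splits glucose into pyruvate in the cytosol, lactate dehydrogenase turns pyruvate into lactate, and monocarboxylate transporters carry the lactate out. The pentose phosphate pathway branches off at glucose 6-phosphate and yields NADPH and ribose. Macrophages activated through TLR4 are known for a high glycolytic rate, and HIF-1 alpha, which prolyl hydroxylases mark for degradation when oxygen is plentiful, is known to drive the transcription of many glycolytic genes in them.

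With 1 array per condition no replicate check and no statistical test were possible, and each comparison set 1 library against another. Values are log2 levels, with each array set to 0 at the 75th percentile of its gene spots, and a difference between 2 levels is a log2 ratio, called at 2-fold. A spot was compared where the scanner software marked it well above background (48.5% to 55.3% of gene spots per array). The ratio of a probe spotted repeatedly varied with a median SD of 0.04 to 0.05 over its spots, and that of different probes of a gene with a median SD of 0.23 for CRL1505 + LPS against LPS, 0.22 for CRL1506 + LPS against LPS and 0.32 between the strains. These SDs are technical and say nothing of the spread between cultures, and in bulk RNA fewer cells with a transcript and less of it per cell cannot be told apart. The array of CRL1505 + LPS was printed on a separate slide and scanned in a separate run from the other two, which had both in common, so in each comparison that involves CRL1505 strain and slide cannot be told apart. All 7 macrophage markers examined (*Adgre1*, *Csf1r*, *Cd68*, *Lyz2*, *Ptprc*, *Itgam* and *Cd14*) were well above background on every array, against 4, 4 and 7 of 14 markers of other cell types on the LPS, CRL1505 + LPS and CRL1506 + LPS arrays, none of which exceeded a level of 0.72. The log2 ratios of the macrophage markers ran from -1.47 (*Csf1r*) to 2.27 (*Adgre1*) with CRL1505 and from -0.87 (*Csf1r*) to 1.0 (*Adgre1*) with CRL1506, and their part in the results was not tested. Of the 35 genes, 33 could be compared. *Egln3*, an HIF prolyl hydroxylase, and *Adm*, the adrenomedullin precursor, were nowhere well above background.

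Compared with LPS alone, macrophages given *L. rhamnosus* CRL1505 had 4 glycolytic transcripts at least 2-fold higher, which were those of the hexokinases *Hk2* and *Hk3*, of *Pfkfb3*, and of the lactate transporter *Slc16a1*. Only *Pdk1*, a kinase that inhibits pyruvate dehydrogenase, and *Ldhb*, the heart-type lactate dehydrogenase subunit, were at least 2-fold lower. *Ldhb* was not well above background with CRL1505, and among probes above background on every array the count of lower genes was 1. The 4 of 33 genes above the 2-fold limit were 12.1%, beside 9.60% of all 14903 genes compared, and the 2 below it were 6.06%, beside 8.53%. At 1.5-fold, 6 genes (18.2%) were higher and 6 (18.2%) were lower, beside 18.6% and 17.4% of all genes, so the list as a whole was about as often past either limit as the array. The median log2 ratio of the 32 genes measured on both arrays was -0.03, beside 0.05 over all genes. The list held a few transcripts at its ends and a body of enzymes near 0.

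**Figure D1:**
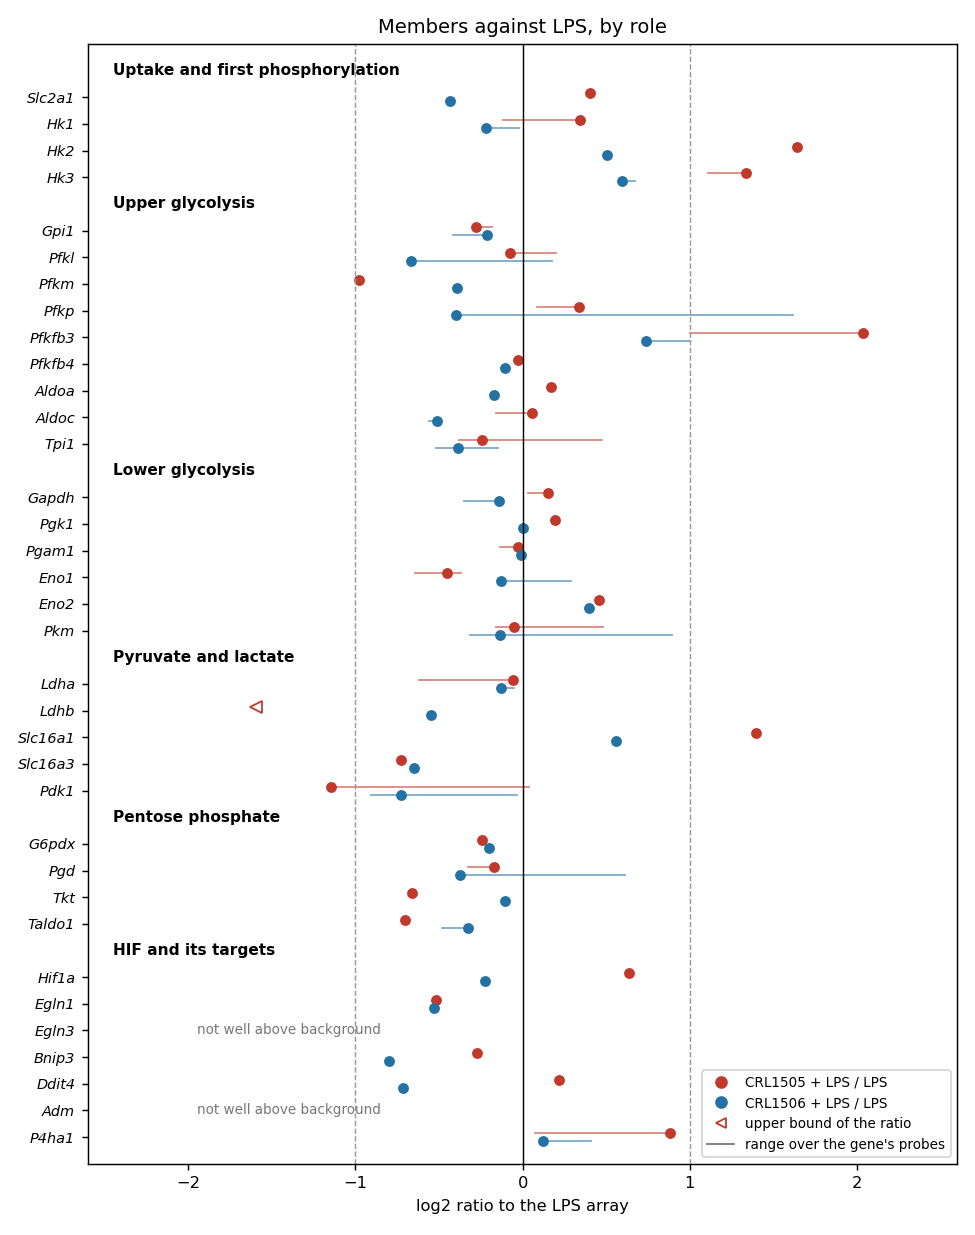
Log2 ratio to the LPS array (x axis) of each of the 35 genes (y axis, grouped by role) for CRL1505 + LPS (red) and CRL1506 + LPS (blue), 1 array per condition. Points are the brightest probe of a gene, and thin lines span all of its measured probes. The open triangle, labelled a bound, is *Ldhb*, which was not well above background with CRL1505. Dashed lines mark 2-fold. *Hk2*, *Hk3*, *Pfkfb3* and *Slc16a1* lie to the right of the 2-fold line for CRL1505 + LPS, and no blue point lies beyond either line.

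Glucose uptake and its first phosphorylation held 2 of the 4 genes past 2-fold upward with CRL1505. *Hk2*, the inducible hexokinase, had levels of 1.90 on the LPS array, 3.54 with CRL1505 and 2.40 with CRL1506. The CRL1505 + LPS array was thus the highest, 3.12-fold (log2 ratio 1.64) above LPS, with CRL1506 + LPS between the other two at a log2 ratio of 0.51. *Hk3*, a hexokinase of myeloid cells, had levels of 4.51, 5.85 and 5.11 in the same order of arrays. It was 2.52-fold higher with CRL1505 (log2 ratio 1.34) and 1.51-fold higher with CRL1506 (0.60), and its other measured probe gave 1.11 and 0.67. *Slc2a1*, the glucose transporter GLUT1, had levels of 5.17, 5.57 and 4.74, a log2 ratio of 0.40 with CRL1505 and -0.43 with CRL1506. *Hk1*, the constitutive hexokinase, had ratios of 0.34 and -0.22. All 4 genes of this group had a positive ratio with CRL1505, beside 54.1% of all genes, although those of *Slc2a1* and *Hk1* turned to -0.10 and -0.16 when the arrays were scaled by their spike-in controls. Between the strains all 4 were higher with CRL1505 under each of the 8 scalings tried, on their brightest probes. The other measured probe of *Hk1* gave -0.12 with CRL1505, -0.02 with CRL1506 and -0.09 between the strains.

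In upper glycolysis the outlying gene was *Pfkfb3*, whose product makes fructose 2,6-bisphosphate, the activator of phosphofructokinase. Its levels were 1.54 on the LPS array, 3.57 with CRL1505 and 2.28 with CRL1506. With CRL1505 it was 4.10-fold above LPS (log2 ratio 2.03), the highest ratio among the 33 genes, and with CRL1506 it was 1.67-fold above LPS (0.74). A second *Pfkfb3* probe gave log2 ratios of 1.0 and 1.0, so the excess over LPS was seen on both probes while the gap between the strains was seen on 1 of them. *Pfkfb4*, a related bifunctional enzyme, had ratios of -0.03 and -0.11. The phosphofructokinase subunits themselves did not follow *Pfkfb3*. *Pfkm*, the muscle type, had a ratio of -0.98 with CRL1505, just inside the 2-fold limit, and -0.39 with CRL1506. *Pfkl*, the liver type, had -0.08 and -0.67, and its other measured probe gave 0.20 and 0.17. *Pfkp*, the platelet type, had 0.34 and -0.40 on its brightest probe.

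The remaining upper enzymes lay close to LPS. Ratios with CRL1505 and CRL1506 were -0.28 and -0.22 for *Gpi1*, the glucose 6-phosphate isomerase, 0.17 and -0.17 for the aldolase *Aldoa*, 0.06 and -0.51 for the aldolase *Aldoc*, and -0.24 and -0.39 for *Tpi1*, the triose phosphate isomerase. *Aldoc* offers a check of the array itself, since the probe used for it was spotted 10 times. The SD over the spots was 0.12 for CRL1505 + LPS against LPS and 0.06 for CRL1506 + LPS against LPS, so the lower value with CRL1506 was larger than the spot-to-spot error, and 2 probes gave -0.50 and -0.51. With CRL1506, 8 of the 9 genes of upper glycolysis had a negative ratio (median -0.39), beside 59.2% of all genes, with *Pfkfb3* the exception. With CRL1505 the 9 were divided into 4 above and 5 below 0 (median -0.03), beside 45.9% of all genes below 0. The count of 8 fell under cyclic loess, where *Aldoa* turned to 0.00, and under averaging of probes, where *Pfkp* turned to 0.53.

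**Figure D2:**
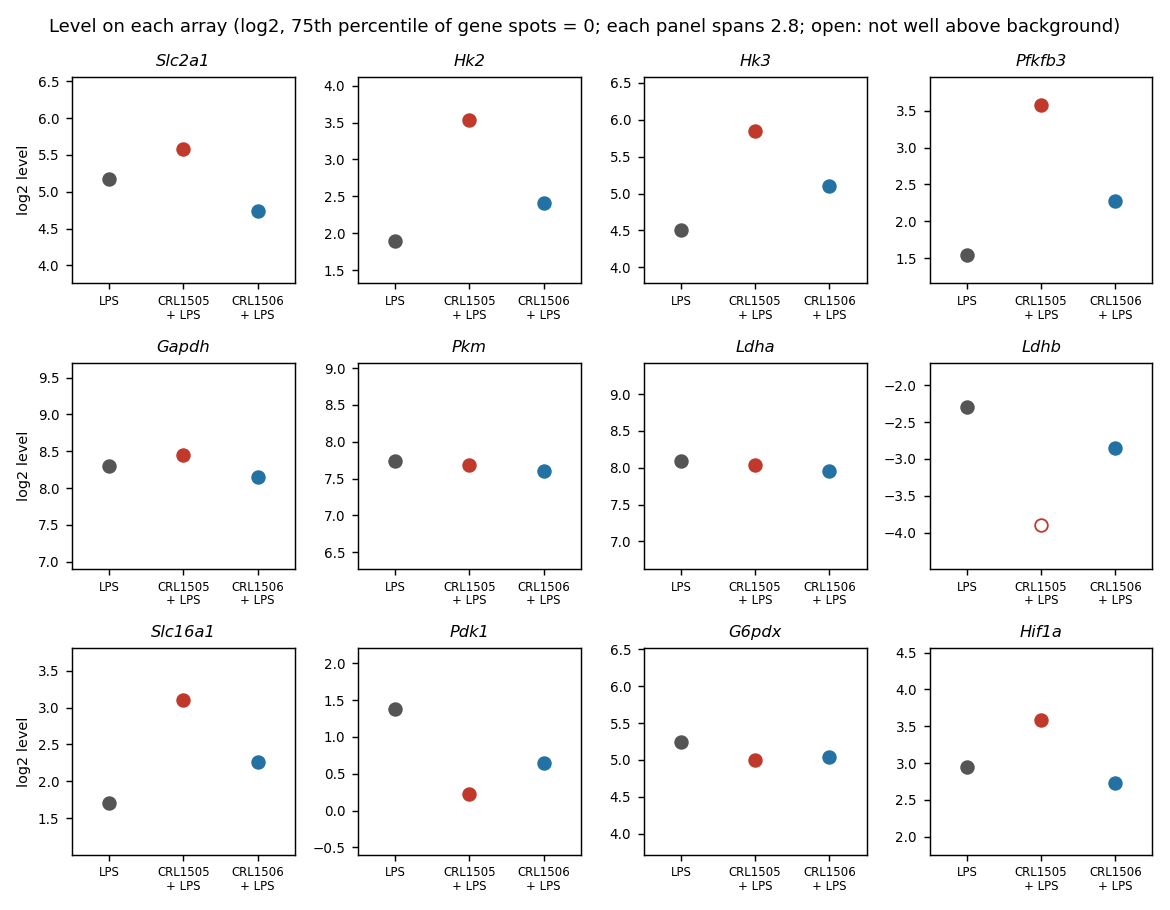
Level on each array (y axis, log2 relative to the 75th percentile of gene spots; each panel spans the same number of log2 units) of the 12 genes whose levels are given for every array, with arrays on the x axis and an open point where a probe was not well above background. *Hk2*, *Hk3*, *Pfkfb3* and *Slc16a1* share the order LPS, CRL1506 + LPS, CRL1505 + LPS, while *Gapdh*, *Pkm* and *Ldha* are nearly level.

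Lower glycolysis moved little. *Gapdh*, which oxidises glyceraldehyde 3-phosphate and is often used as a reference transcript, had levels of 8.30, 8.45 and 8.16. Its 6 probes gave log2 ratios of 0.03 to 0.15 with CRL1505 and of -0.35 to -0.14 with CRL1506. The probes read the same RNA on the same arrays, so they are not replicates of a condition. Between the strains the ratio of 0.29 turned to -0.09 under spike-in scaling. *Pkm*, the pyruvate kinase of macrophages, had levels of 7.74, 7.69 and 7.60, log2 ratios of -0.05 and -0.14. *Pgk1*, the phosphoglycerate kinase, had ratios of 0.19 and 0.00, and *Pgam1*, the phosphoglycerate mutase, had -0.03 and -0.01. The *Pgam1* probe was also spotted repeatedly, and 8 usable spot pairs per comparison gave an SD of 0.05. The enolase *Eno1* had -0.45 and -0.13, and its probe shared at least 40 bases with one annotated to *Eno1b*, so both copies may contribute. *Eno2*, the neuronal enolase, had 0.46 and 0.40. None of the 6 genes reached 1.5-fold in either comparison with LPS. Of all genes, 68.2% with CRL1505 and 84.4% with CRL1506 also stayed inside that limit. Apart from *Eno2*, the 6 lay above a level of 6 on the LPS array, where the ratios of all probes spread less. The SD of those ratios was 0.45 with CRL1505 and 0.26 with CRL1506, against 0.71 and 0.48 at levels of 0 to 3. The sign of *Gapdh*, *Pgk1*, *Pgam1* and *Pkm* turned under at least 1 scaling in each comparison with LPS.

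At the pyruvate and lactate step *Slc16a1* had a positive ratio with both strains, and the other 4 genes had negative ones. Of all genes, 45.9% were below 0 with CRL1505 and 59.2% with CRL1506. *Slc16a1*, the monocarboxylate transporter MCT1, had levels of 1.71 on the LPS array, 3.1 with CRL1505 and 2.27 with CRL1506. It was 2.63-fold higher with CRL1505 (log2 ratio 1.39) and 1.47-fold higher with CRL1506 (0.56), again with the order seen for *Hk2*, *Hk3* and *Pfkfb3*. *Slc16a3*, the transporter MCT4, which is the HIF-regulated exporter of glycolytic cells, went the other way, with ratios of -0.73 and -0.65. *Ldha*, the muscle-type lactate dehydrogenase subunit that favours lactate, had levels of 8.09, 8.03 and 7.96, ratios of -0.06 and -0.13. Its other, dimmer probe gave -0.62 and -0.05. On the brightest probe the *Ldha* ratio turned to 0.24 with CRL1505 under scaling to the median. With CRL1506 it turned under 3 alternatives, to 0.04 at its farthest. *Ldhb* had levels of -2.30 and -2.85 on the LPS and CRL1506 + LPS arrays and was not well above background with CRL1505 (-3.89). That dim level was 3.02-fold below the LPS level, a ratio that is not a firm minimum. *Pdk1* had levels of 1.37, 0.23 and 0.65, 2.21-fold lower with CRL1505 (log2 ratio -1.15) and 1.65-fold lower with CRL1506 (-0.73). The probes of *Pdk1* did not give a single answer, since a second probe gave -1.13 and -0.91 and another 0.04 and -0.04.

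The array annotation placed the probes of the 6 genes past 2-fold at chr6:82675056-82675115 (*Hk2*), chr13:55107377-55107436 (*Hk3*), chr2:11393579-11393638 (*Pfkfb3*), chr3:104460941-104461000 (*Slc16a1*), chr2:71739926-71739985 (*Pdk1*) and chr6:142438829-142438888 (*Ldhb*). It names its mouse build only as mm. On GRCm38.p6 all 35 probes used had the chromosome of their gene and 1 had a position inside it, so these coordinates belong to another build and their exon was not assigned.

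Since the list was drawn around HIF, the stretch of 250 bases before each RefSeq transcription start (GRCm38.p6) was read for the core of the hypoxia response element, ACGTG, on either strand (written CACGT on the other). The letters overlap the E-box CACGTG, which matches on both strands. At least 1 match was present for 18 of the 35 genes (51.4%), beside 18.5% of all 27025 genes with a promoter sequence, and in 21 of 49 windows (42.9%) beside 16.6% of all 32851. The higher share cannot be told apart from the choice of the genes and is not a result of the arrays. By role, the genes with a match were 3 of 4 for uptake, 3 of 9 in upper glycolysis, 3 of 6 in lower glycolysis, 3 of 5 at pyruvate and lactate, 0 of 4 in the pentose phosphate pathway and 6 of 7 of HIF and its targets. Printed below are the windows of the 4 genes at least 2-fold higher with CRL1505. For contrast those of *Ldha* and *Pgk1* follow, which hold the motif but were near the LPS level on the probes used. Each reads 5′ to 3′ on the strand of the gene, with capitals for the motif. The starts of *Pfkfb3* are numbered by coordinate, and as the gene is on the minus strand the second lies upstream.
*Hk2*, chr6:82774455-82774704, minus strand: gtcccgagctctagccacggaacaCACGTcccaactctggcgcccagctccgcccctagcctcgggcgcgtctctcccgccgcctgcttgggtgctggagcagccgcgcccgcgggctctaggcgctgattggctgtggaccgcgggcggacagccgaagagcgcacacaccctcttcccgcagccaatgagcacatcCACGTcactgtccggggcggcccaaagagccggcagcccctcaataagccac
*Hk3*, chr13:55021386-55021635, minus strand: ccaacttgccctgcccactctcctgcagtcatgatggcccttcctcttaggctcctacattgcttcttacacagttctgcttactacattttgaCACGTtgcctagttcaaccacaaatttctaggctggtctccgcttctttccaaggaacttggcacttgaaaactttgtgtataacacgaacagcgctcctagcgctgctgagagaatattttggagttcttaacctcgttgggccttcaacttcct
*Pfkfb3*, first start, chr2:11502091-11502340, minus strand: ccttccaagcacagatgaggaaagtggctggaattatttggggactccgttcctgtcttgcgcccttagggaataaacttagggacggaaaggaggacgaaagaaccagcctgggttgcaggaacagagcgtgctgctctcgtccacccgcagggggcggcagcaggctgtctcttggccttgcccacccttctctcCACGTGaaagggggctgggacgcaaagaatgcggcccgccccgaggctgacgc
*Pfkfb3*, second start, chr2:11553930-11554179, minus strand: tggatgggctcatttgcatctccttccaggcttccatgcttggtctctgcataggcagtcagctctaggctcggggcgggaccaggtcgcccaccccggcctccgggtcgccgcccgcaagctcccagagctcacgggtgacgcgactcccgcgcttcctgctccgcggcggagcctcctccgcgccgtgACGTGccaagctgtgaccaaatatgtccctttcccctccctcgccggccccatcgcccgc
*Slc16a1*, chr3:104638414-104638663, plus strand: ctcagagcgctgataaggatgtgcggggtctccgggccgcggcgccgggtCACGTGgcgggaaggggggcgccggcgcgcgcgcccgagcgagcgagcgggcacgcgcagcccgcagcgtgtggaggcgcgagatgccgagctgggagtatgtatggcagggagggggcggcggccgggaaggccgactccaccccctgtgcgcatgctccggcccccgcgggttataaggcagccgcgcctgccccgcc
*Ldha*, chr7:46845554-46845803, plus strand: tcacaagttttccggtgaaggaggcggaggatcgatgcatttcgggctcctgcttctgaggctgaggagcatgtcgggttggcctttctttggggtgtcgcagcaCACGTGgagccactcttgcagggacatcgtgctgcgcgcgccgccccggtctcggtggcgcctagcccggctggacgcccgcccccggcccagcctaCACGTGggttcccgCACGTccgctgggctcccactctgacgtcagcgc
*Pgk1*, chrX:106186850-106187099, plus strand: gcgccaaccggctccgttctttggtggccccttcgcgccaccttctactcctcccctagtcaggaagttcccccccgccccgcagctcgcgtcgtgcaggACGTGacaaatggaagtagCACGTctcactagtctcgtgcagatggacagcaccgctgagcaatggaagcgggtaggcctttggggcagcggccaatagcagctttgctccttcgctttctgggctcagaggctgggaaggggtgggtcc

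All 4 genes past 2-fold upward had a match, at 2 places for *Hk2* and 1 place in each other window. So did *Ldha* with 3 places and *Pgk1* with 2, whose ratios with CRL1505 were -0.06 and 0.19 on the probes used. *Pdk1* and *Ldhb* had no match in the windows read. A match describes letters, and binding was not measured.

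All 4 genes of the pentose phosphate pathway had negative ratios with either strain, beside 45.9% of all genes with CRL1505 and 59.2% with CRL1506. *G6pdx*, glucose 6-phosphate dehydrogenase, which commits glucose 6-phosphate to the pathway, had levels of 5.24, 4.99 and 5.03, log2 ratios of -0.24 and -0.20. *Pgd*, the second NADPH-producing enzyme of the oxidative branch, had -0.17 and -0.37. *Tkt* and *Taldo1*, transketolase and transaldolase of the non-oxidative branch, were lower with CRL1505 (-0.66 and -0.71) than with CRL1506 (-0.11 and -0.33). The medians of the 4 were -0.45 and -0.27. With CRL1505 the sign of *Tkt* and *Taldo1* held under each alternative, and scaling to the median turned *G6pdx* to 0.05 and *Pgd* to 0.12. With CRL1506, *G6pdx* and *Taldo1* held, while *Tkt* turned under quantile normalization and cyclic loess and *Pgd* under averaging of its probes.

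*Hif1a*, the oxygen-regulated subunit of HIF-1, had levels of 2.95 on the LPS array, 3.59 with CRL1505 and 2.73 with CRL1506. Its log2 ratio was 0.64 with CRL1505 (1.56-fold) and -0.23 with CRL1506, so on its brightest probe the LPS array lay between the strains. A far dimmer probe was not well above background with LPS (-5.15) and read -3.89 with CRL1505 and -4.12 with CRL1506. On that probe LPS was lowest, and the log2 ratio between the strains was 0.23. Of the HIF targets, *P4ha1*, a collagen prolyl hydroxylase subunit, had 0.88 and 0.12 on its brightest probe and 0.07 and 0.41 on another. *Ddit4*, the mTOR inhibitor REDD1, had 0.22 and -0.71. *Bnip3*, a mitophagy receptor, had -0.27 and -0.80, and *Egln1*, the main HIF prolyl hydroxylase PHD2, had -0.52 and -0.53. Among these 5 measured genes 3 were above and 2 below 0 with CRL1505 (median 0.22), beside 54.1% of all genes above 0. With CRL1506, 1 was above and 4 were below 0 (median -0.53), beside 59.2% of all genes below 0. With CRL1505 *Ddit4* turned to -0.29 under spike-in scaling and *Bnip3* to 0.02 under scaling to the median. With CRL1506 *P4ha1* turned to -0.08 at its farthest.

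With *L. plantarum* CRL1506 none of the 33 genes passed 2-fold, beside 4.68% of 15477 genes higher and 3.44% lower. At 1.5-fold, 2 genes (6.06%) were higher, *Hk3* and *Pfkfb3*, beside 10.3% of all genes, and 5 (15.2%) were lower, *Pfkl*, *Slc16a3*, *Pdk1*, *Bnip3* and *Ddit4*, beside 9.22%. Averaging of probes put *Pfkl* at -0.25, inside the 1.5-fold limit. Negative ratios prevailed, with 26 genes below 0 and 7 above. Over all genes 40.8% were above 0. The median of the list was -0.22, beside -0.07 over all genes. The gap of -0.15 shrank to -0.04 under quantile normalization and -0.02 under cyclic loess, so the lower median of the list depended on the normalization.

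**Figure D3:**
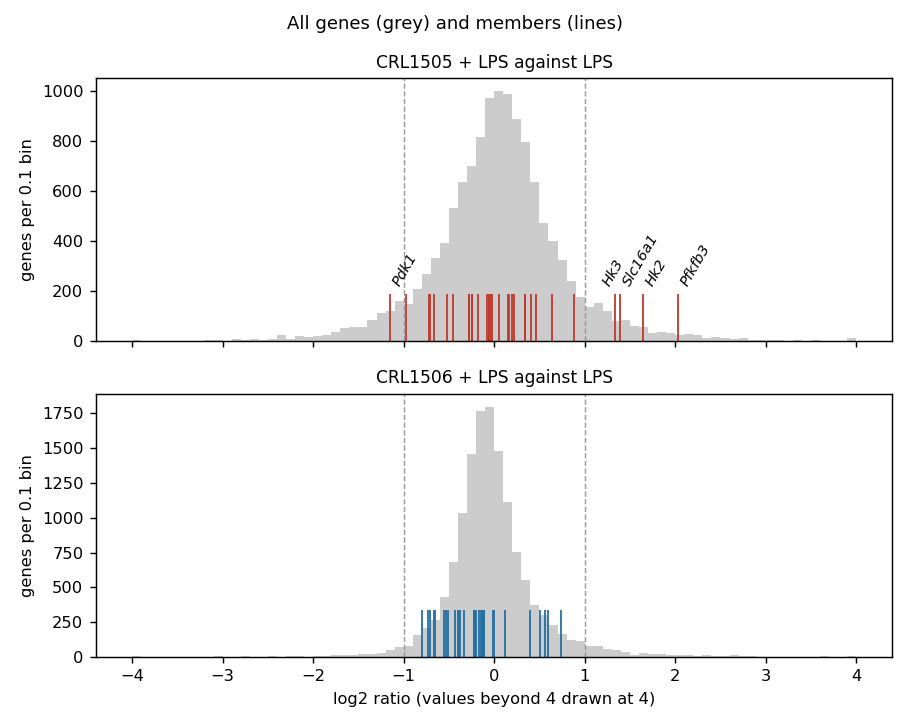
Distribution of log2 ratios over all genes measured on both arrays (grey, genes per bin of the x axis) with the listed genes as coloured lines, for CRL1505 + LPS (top) and CRL1506 + LPS (bottom) against LPS, 1 array each; dashed lines mark 2-fold. The listed genes spread across the grey distribution at the top, where *Pdk1* and 4 genes on the right pass 2-fold, and sit mostly left of 0 at the bottom.

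Set against each other, the CRL1505 + LPS array had *Hk2* (log2 ratio 1.13) and *Pfkfb3* (2.45-fold, log2 ratio 1.3) above the CRL1506 + LPS array past 2-fold. *Ldhb*, by its dim level with CRL1505, was 2.06-fold below. These were 2 genes (6.06%) higher beside 8.87% of 15021 genes, and 1 gene (3.03%) lower beside 6.80%. At 1.5-fold, 10 genes (30.3%) were higher with CRL1505, beside 19.1% of all genes, and 1 (3.03%) was lower, beside 16.3%. The 10 were *Slc2a1* (0.84), *Hk2*, *Hk3* (0.74), *Pfkl* (0.59), *Pfkp* (0.74), *Pfkfb3*, *Slc16a1* (0.83), *Hif1a* (0.86), *Ddit4* (0.93) and *P4ha1* (0.76), and they came from uptake, upper glycolysis, lactate export and the HIF group, with none from lower glycolysis or the pentose phosphate pathway. This count of 10 depended on the scaling. At their lowest over the 8 scalings, only *Hk2* (0.75) and *Pfkfb3* (0.91) stayed past 1.5-fold. Under quantile normalization *Slc2a1* (0.56), *Hk3* (0.44), *Pfkl* (0.51) and *Pfkp* (0.48) were inside that limit. Other probes of several of these genes gave lower values. A second probe gave 0.00 for *Pfkfb3*, 0.03 for *Pfkl*, 0.43 for *Hk3*, 0.23 for *Hif1a* and -0.33 for *P4ha1*. The other probes of *Pfkp* gave 0.50, -1.13 and -1.53, and averaging its probes turned the gene to -0.36. In the pentose phosphate group 3 of 4 were lower with CRL1505, beside 42.9% of all genes, *Tkt* by the most (-0.55). Of the 4, only *Tkt* kept its sign under every alternative. Scaling to the median turned *G6pdx* from -0.04 to 0.45 and *Taldo1* from -0.38 to 0.12. *Pgd*, at 0.20, turned negative under 6 alternatives. The median of 32 genes was 0.20, beside 0.09 over all genes. Both comparisons with LPS share the LPS array, and the comparison between the strains crosses the 2 slides.

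Agreement between probes limited several of these values. Of the 35 genes, 13 had a single probe, *Hk2*, *Slc16a1*, *Slc2a1*, *Aldoa* and *Pgk1* among them. In each comparison with LPS, 17 genes had 2 or more measured probes, of which 6 with CRL1505 and 5 with CRL1506 gave opposite signs. *Pfkp* was the widest: with CRL1506 its 2 brightest probes gave -0.40 and -0.37, and 3 dimmer ones gave 1.15, 1.27 and 1.62, while with CRL1505 the 4 measured probes lay between 0.08 and 0.34. A dim probe of *Pkm* gave 0.48 and 0.89 against -0.16 to -0.05 and -0.32 to -0.07 for the other 3. Which transcripts each probe detects was not tested.

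**Figure D4:**
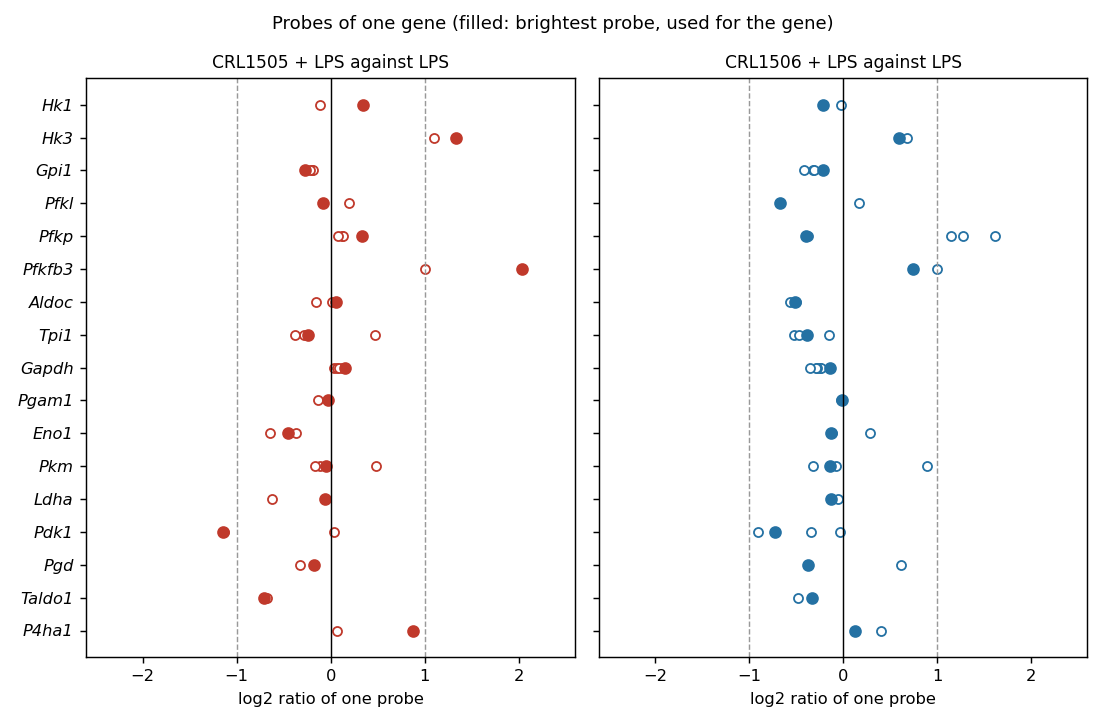
Log2 ratio to the LPS array (x axis) of each measured probe of the 17 genes with several (y axis), with CRL1505 + LPS on the left and CRL1506 + LPS on the right; filled points are the brightest probe, used for the gene, and dashed lines mark 2-fold. *Gapdh* and *Gpi1* probes cluster tightly, *Pfkp* splits into a group near -0.4 and one above 1 on the right, and *Pdk1* spans from below the line to 0 on the left.

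The 2-fold calls of *Hk2* and *Pfkfb3* with CRL1505 held under all 8 scalings and inputs, at log2 ratios of 1.13 to 1.94 and 1.53 to 2.33. Those of *Hk3* (0.83 to 1.63), *Slc16a1* (0.89 to 1.69) and *Pdk1* (-1.65 to -0.85) held under 7. The only *Slc16a1* spot on the CRL1505 + LPS array had 5 uneven spots among its 20 nearest, and with such spots left out the gene had no value there. *Pdk1* fell inside the limit, at -0.75, when its probes were averaged. The lowest upward values came from the spike-in scaling, which moved the median of all genes to -0.45, so that relative to all genes they were no lower than before. *Ldhb*, at the dim end of the array, was only 1.53-fold lower (-0.62) once the background was corrected by normexp. Between the strains *Pfkfb3* passed 2-fold under 7 of the 8 and *Hk2* under 3 (0.75 to 1.63).

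**Figure D5:**
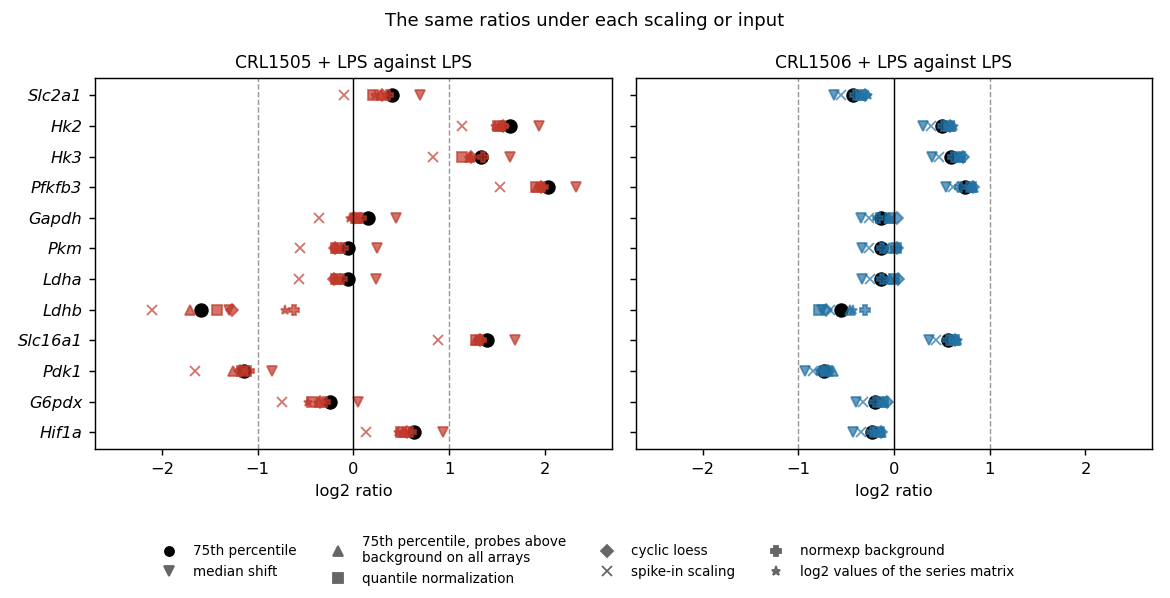
Log2 ratios (x axis) of the 12 genes of the level plot (y axis) under the scaling used (black) and 7 other scalings or inputs (symbols), for CRL1505 + LPS (left) and CRL1506 + LPS (right) against LPS; dashed lines mark 2-fold. *Hk2* and *Pfkfb3* stay right of the 2-fold line throughout on the left, and spike-in scaling (crosses) shifts all genes to the left together.

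A further 64 genes of the same pathways were examined. Of 52 that could be compared, 4 were higher (7.69%) and 5 lower (9.62%) with CRL1505, beside 9.60% and 8.53% of all genes. Of 54, 3 were higher (5.56%) and 1 was lower (1.85%) with CRL1506, beside 4.68% and 3.44%. Their medians were -0.04 and -0.13. Among 27 other genes of glycolysis and lactate, 20 of which could be compared with CRL1505, none was higher with CRL1505 and 3 were lower, *Eno3*, the muscle enolase (-1.49), *Pgam2*, the muscle phosphoglycerate mutase (-1.10), and, by a bound of at least 2.13-fold, *Pdk2*, a relative of *Pdk1*. None passed 2-fold with CRL1506. Between the strains *Gpd2*, the mitochondrial glycerol 3-phosphate dehydrogenase (1.02), was higher with CRL1505, and *Pfkfb1* (-1.43), *Pgam2* (-1.35) and *Eno3* (-1.19) were lower. The *Pfkfb1* spot used had 5 uneven spots among its 20 nearest on the CRL1506 + LPS array. *Pgam2* read only -3.96 with CRL1505, below the *Ldhb* level that was not well above background. Of 10 other pentose phosphate genes, *Rpe*, the ribulose phosphate epimerase, was higher with CRL1505 (1.12) and *Prps2*, a phosphoribosyl pyrophosphate synthetase, lower (-1.11).

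Among 27 other genes of the HIF pathway the largest ratio was that of *Edn1*, endothelin 1, whose levels of -2.90, -0.32 and -1.20 gave 2.58 with CRL1505 and 1.69 with CRL1506. *Epas1*, which codes for HIF-2 alpha, had levels of 3.58, 1.72 and 2.50, and was 3.63-fold lower with CRL1505 (-1.86) and 2.12-fold lower with CRL1506 (-1.08), the opposite of *Hif1a* with CRL1505. *Ero1l*, an oxidase of the endoplasmic reticulum, was 2.94-fold higher with CRL1505 (1.56) and stood at 0.25 with CRL1506. *Arnt2*, a partner of the HIF alpha subunits, was by bounds at least 2.02-fold and 2.17-fold higher, and *Hif3a* at least 2.17-fold higher with CRL1506. Between the strains *Ccng2*, a cyclin (1.78), and *Ndrg1* (1.06) were higher with CRL1505, and *Vegfa*, the vascular growth factor, was not well above background with CRL1505 and at least 2.26-fold lower. Many of these calls depended on the scaling. Those of *Eno3*, *Epas1*, *Ero1l* and *Edn1* with CRL1505, of *Edn1* with CRL1506 and of *Ccng2* between the strains held under all 8 scalings and inputs. With CRL1505 that of *Prps2* held under 7, *Rpe* under 6, *Arnt2* under 4, and *Pgam2* and *Pdk2* under 3. With CRL1506 that of *Epas1* held under 5, *Hif3a* under 4 and *Arnt2* under 3. Between the strains *Eno3* held under 7, *Pfkfb1* under 6, *Pgam2*, *Vegfa* and *Ndrg1* under 3, and *Gpd2* under 2.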

How the data were processed

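RNA of RAW 264.7 macrophages was hybridised to 3 Agilent one-colour arrays, 1 each for LPS, CRL1505 + LPS and CRL1506 + LPS. The deposited scanner files hold processed signal intensity from Agilent Feature Extraction 12.0.3.1, from which the authors' settings had subtracted a fitted spatial background, with no normalization between arrays. The series table holds the authors' log2 values, normalized between arrays (each column has a median of 6.77), with limma named in the submitters' processing notes. These were used as an alternative.

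Here log2 intensity was shifted so that each array had its 75th percentile over gene spots at 0 (signals of 517 to 743 before the shift), outlier spots (241 to 467 per array) were left out, spots of a probe were averaged, and the brightest probe stood for a gene. Of the probes of a gene name, only names found among RefSeq symbols or synonyms counted as genes. No gene spot was saturated. Where only 1 side was well above background, the bright level was set against a dim one. That was the higher of the dim probe's own level and the lowest level well above background on that array. The ratio is called a bound, except for *Ldhb*, where the dim probe's own level was the higher. No test was run. The number of arrays limits the precision. Python 3.11.15, pandas 2.3.3, NumPy 2.4.6, R 4.3.3 and limma 3.58.1 were used, and the scripts were tested on simulated data.

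All 35 genes are named. Levels per array are given for genes at least 2-fold in any comparison and for *Slc2a1*, *Hk2*, *Pfkfb3*, *Gapdh*, *Pkm*, *Ldha*, *G6pdx* and *Hif1a*. Of 64 further pathway genes those at least 2-fold are named, and 2 more are not reported here. The genes and lists were chosen with earlier results of these data known. Alternatives were other scalings and inputs, other filters on dim, outlying and uneven spots, averaging of probes and a 1.5-fold limit. Promoter sequences are RefSeq, GRCm38.p6, and all 35 genes matched. Non-stimulated cells were not analysed here.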

Additional observations from a re-analysis of the deposited data

Results flagged for a closer look

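For 8 of the listed genes the ratio to LPS was positive with CRL1505 and negative with CRL1506. Both ratios share the LPS array, and over all genes 54.1% of ratios were above 0 with CRL1505 and 40.8% with CRL1506. The log2 ratio of CRL1505 + LPS over CRL1506 + LPS was 0.84 for *Slc2a1*, 0.56 for *Hk1*, 0.74 for *Pfkp*, 0.34 for *Aldoa*, 0.57 for *Aldoc*, 0.29 for *Gapdh*, 0.86 for *Hif1a* and 0.93 for *Ddit4*. Both signs were kept under every alternative for *Hif1a* alone. That held for its brightest probe, and on its dimmer second probe LPS was lowest. The gap for *Gapdh* was below the median SD of 0.32 between probes of a gene, and that for *Aldoa* was about equal to it. The 6 probes of *Gapdh* itself gave 0.27 to 0.43, and the sign of the gene turned under cyclic loess and spike-in scaling. Of the other pathway genes named, 6 had opposite signs with the strains, at 1.78 for *Ccng2*, 1.06 for *Ndrg1*, 1.02 for *Gpd2*, -1.35 for *Pgam2*, -1.43 for *Pfkfb1* and, as a bound, -1.18 for *Vegfa*. On the LPS array the spots used for *Pfkfb1* and *Ndrg1* had 7 and 6 uneven spots among their 20 nearest. With 1 array per condition none of these differences was tested, and the strains lay on different slides.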

How the results depend on the processing

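The median of the listed genes minus that of all genes (-0.08 with CRL1505, -0.15 with CRL1506 and 0.10 between the strains) ran over the 12 alternatives from -0.15 to -0.02, from -0.26 to -0.02 and from -0.07 to 0.12. Between the strains its direction turned under cyclic loess, and it was 0.0005 under quantile normalization. Scaling to the median, to the 75th percentile of probes well above background or to the spike-ins shifts all genes alike and cannot change it. Counts past 2-fold were small and moved, and the cause was not tested. With CRL1505 against LPS, the count of higher genes was 4, and it was 5 under scaling to the median, 6 at a 1.5-fold limit, 3 with uneven spots left out, where *Slc16a1* had no value, and 2 under spike-in scaling. The count of lower genes was 2, and it was 7 under spike-in scaling, 6 at a 1.5-fold limit, and 1 under scaling to the median, normexp background, the series table, averaging of probes, or the restriction to probes that every array measured above background. With CRL1506 against LPS, 0 genes became 1 lower gene under scaling to the median, and 2 higher and 5 lower genes at a 1.5-fold limit. Between the strains, 2 higher genes became 13 under scaling to the median, 10 at a 1.5-fold limit, 0 under spike-in scaling, and 1 under the 75th percentile of probes well above background, quantile normalization, cyclic loess, the series table or averaging of probes. The 1 lower gene became 0 under cyclic loess, quantile normalization, normexp background, scaling to the median, the series table and the same restriction of probes. Scaling to the median moved the median ratio of all genes to 0.35, -0.27 and 0.59, and spike-in scaling moved it to -0.45, -0.19 and -0.29. Among all genes past 2-fold with CRL1505, 52.9% were higher, but 75.4% under scaling to the median, 62.6% with normexp background, 37.4% without the filter on dim probes and 19.4% under spike-in scaling. No single gene past 2-fold turned its sign under any alternative. Of 1183 alternative ratios of single genes, 1022 moved by less than the SD between probes. Leaving out uneven spots was added after seeing the data. No paired analysis was possible because each condition had 1 array, and no replicate could be left out.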
